A study of Homo sapiens with 4 samples.

Results

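The proteasome genes described here are the protein-coding genes whose symbol is PSM followed by one of the letters A to G and a number, taken wherever 1 of them carried an NSUN2 peak in PANC-1 cells. There were 42 of them among 12397 protein-coding genes with a peak in either of the peak lists. The list made with lactate named 34 of the 42 and 9569 of the 12397. That made with ddH2O named 39 of the 42 and 11870 of the 12397. Of these 42, 31 had a peak in both lists, PSMB10, PSMC2 and PSMD6 in the lactate list alone, and the other 8 in the ddH2O list alone. One of the 42, PSME3IP1, encodes a binding partner of the activator PSME3 and no subunit. It is counted in the totals below, and without it 33 genes had a peak with lactate and 38 with ddH2O.

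NSUN2 is an RNA methyltransferase that places 5-methylcytosine on tRNA and other RNA, and RIP-seq sequences the RNA that comes down with an antibody against it (IP) beside RNA from the lysate before the pull-down (input). PANC-1 is an established line of human pancreatic ductal adenocarcinoma cells, labelled as wild-type. One culture condition received sodium lactate at 30 mM for 24 h and the other received ddH2O, its vehicle. Each condition had 1 IP library and 1 input library, 4 in all, so no value below has a replicate error, no test between the conditions was possible, and each comparison is one of these libraries and not of the treatments.

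The proteasome degrades proteins that carry ubiquitin chains. Its core particle is a barrel in which rings of alpha subunits (PSMA) gate the entrance and rings of beta subunits (PSMB) hold the protease sites. The regulatory particle on top of it unfolds substrates with a ring of ATPases (PSMC) and binds and trims ubiquitin with non-ATPase subunits (PSMD). Activators (PSME), an inhibitor (PSMF1) and assembly chaperones (PSMG and some PSMD) act on these particles. Subunits of the particle are needed in fixed ratios, and in human cells their genes are raised together by the transcription factor NFE2L1 when proteasome activity is short.

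The start of a transcript can be shown for the few subunits whose peak covered it or lay next to it. The first 30 transcribed bases of PSMC1 and PSMD14, and 30 bases of PSMC4 from the edge of its peak just after the start, lay inside peaks of the ddH2O list with a q-value below 0.05, and they are given 5′ to 3′ from the RefSeq annotation of GRCh38.p14, all on the plus strand. Capitals mark the letters CNGGG, a guanine-rich motif searched because NSUN2 sites often carry one, and the letters shown for PSMC1 and PSMC4 hold none.
PSMC1, chr14:90256553-90256582: ggtggaggaacttccggcagcggcagctca
PSMC4, chr19:39971184-39971213: agaggccggcttggtcactatggaggagat
PSMD14, chr2:161308425-161308454: aagtgcttcgcggcggaggcCCGGGcaact
The peak over the PSMD14 start was 5.05-fold over input, and the peaks of PSMC1 and PSMC4 were 10.7-fold and 2.02-fold. In the first 50 bases, CNGGG was present on either strand in 21 of the 36 proteasome genes matched to a RefSeq start (58.3%), against 51.8% of 35116 RefSeq start windows, so these letters were about as common as elsewhere.

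Peaks lay on most of the family. RefSeq lists 50 protein-coding genes with such a symbol, of which 68.0% had a peak with lactate, 78.0% with ddH2O and 84.0% in either, where the shares of all 20033 RefSeq protein-coding genes were 47.2%, 58.4% and 61.0%. The genes of the mitochondrial ribosome, with 81.8% of 77 in either list, were covered to a like extent, and those of the cytosolic ribosome, with 43.5% of 85, were covered less. These shares count peaks of any q-value. With a q-value below 0.05, 26 proteasome genes kept a peak with lactate and 36 with ddH2O. The shares of all genes at that limit were not counted. Of the genes in the lactate list, 3 were there through a peak off their RefSeq span alone, namely PSMC2, PSME3 and PSMG4. No peak was listed for 8 proteasome symbols, namely the alpha subunit PSMA3, the beta subunits PSMB3 and PSMB11, the chaperones PSMD10 and PSMG1, the paired activators PSME1 and PSME2, and PSMC3IP, a meiotic recombination factor. How strongly these genes are transcribed in the cells bears on whether a peak can be called, and it was not measured here.

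The lactate list held 113 peaks on the 34 genes and the ddH2O list 216 on the 39, and the lactate list as a whole is shorter too, with 48104 peaks against 95785. Of the 113 lactate peaks, 83 (73.5%) shared at least 1 base with a ddH2O peak, and 80 of the 216 ddH2O peaks (37.0%) did so with a lactate peak. The same overlap shares over all peaks were not counted. When the authors merged the lists, the proteasome genes gave 246 merged peaks. Of these, 80 came from both lists (32.5%, against 24.4% of all merged peaks on protein-coding genes). From ddH2O alone came 136 (55.3%, against 57.8%) and from lactate alone 30 (12.2%, against 17.8%).

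**Figure D1:**
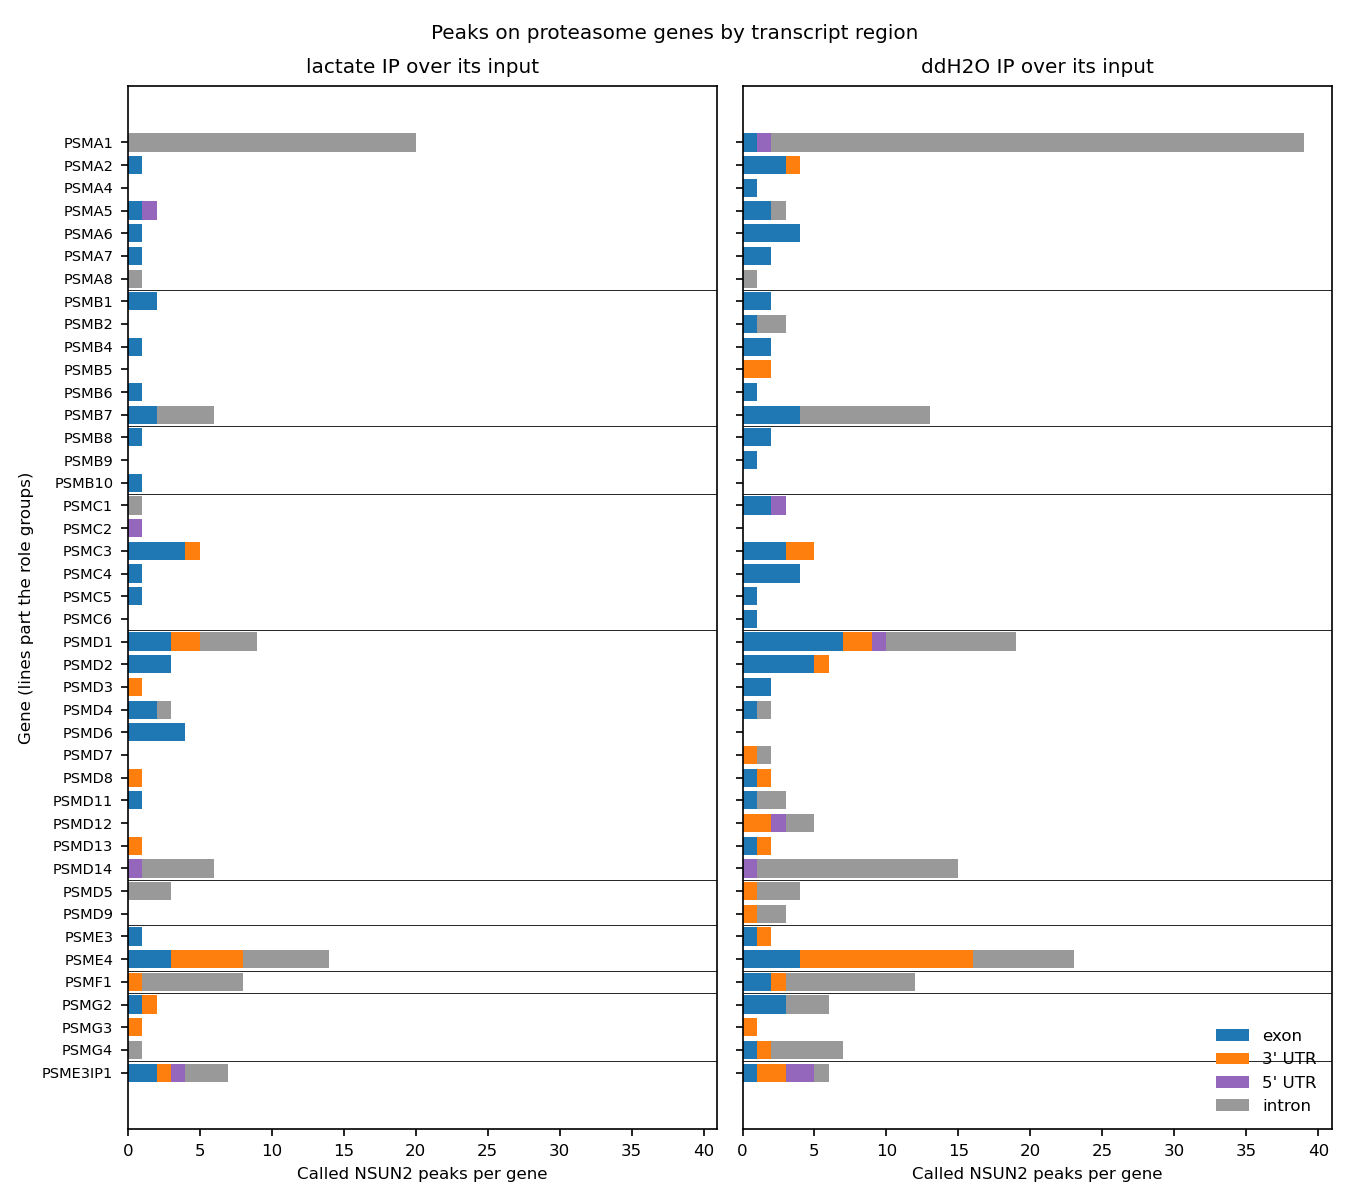
Called NSUN2 peaks per proteasome gene (horizontal axis, number of peaks) in the lactate list (left) and the ddH2O list (right), coloured by transcript region, with lines between role groups. PSMA1 stands out with 20 and 39 peaks, nearly all intronic, while most subunits have 1 to 5.

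Exons held a larger share of peaks on proteasome genes than on protein-coding genes in general. With lactate, 38 of 113 peaks (33.6%) lay in exons, 15 in 3′ UTRs, 4 in 5′ UTRs and 56 (49.6%) in introns, where all protein-coding genes had 18.8% in exons and 61.5% in introns. With ddH2O, 67 of 216 (31.0%) lay in exons, 33 in 3′ UTRs, 7 in 5′ UTRs and 109 (50.5%) in introns, against 21.0% and 61.2%. Without PSMA1 the intron share was 38.7% with lactate and 40.7% with ddH2O. Mitochondrial ribosomal protein genes had shares of that size, with 38.4% and 40.7% in introns.

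The intron peaks were gathered in a few long genes. Proteasome genes were short, with a median RefSeq span of 16.6 kb against 36.9 kb for RefSeq protein-coding genes with a peak. The 8 members of at least 50 kb (PSMA1, PSMA8, PSMB7, PSMD1, PSMD14, PSME4, PSMF1 and PSMG2) held 47 of the 56 intron peaks with lactate and 89 of the 109 with ddH2O. The other 34 genes held the rest, and the regulatory ATPases had 1 intron peak with lactate and none among 14 peaks with ddH2O.

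Exon and UTR windows with at least 20 reads in the pair of IP libraries lay towards the 3′ ends of the genes, as they did in other genes. Along the RefSeq span from the first to the last base, the middle of 74 such merged peaks was at a median of 88.3%, with 53 of them (71.6%) in the last of 3 equal parts of the span and 7 in the first, where 17379 merged peaks of protein-coding genes had a median of 89.4% and 71.6% in the last part. Without the read minimum, 123 merged peaks were at a median of 70.4% and 66 of them (53.7%) were in the last part, against 76.9% and 59.4%. Where each gene was taken by its densest exon or UTR window alone, the median was 93.4% and 28 of 33 were in the last part (84.8%), against 95.9% and 82.0%.

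Over all regions, the median fold over input was that of other genes. It was 3.24 with lactate and 3.03 with ddH2O, the values also found over all protein-coding genes. Within exons it was lower, at 3.24 with lactate against 3.64 and 2.81 with ddH2O against 3.52, as it was within 3′ UTRs, at 3.24 against 3.64 and 2.94 against 3.51. Within introns it was higher with lactate, at 3.76 against 3.24, and equal with ddH2O at 3.03, and the few 5′ UTR peaks had 2.21 against 3.24 with lactate and 3.30 against 3.03 with ddH2O. A q-value below 0.05 was more frequent, with 62 lactate peaks (54.9%) and 124 ddH2O peaks (57.4%) against 44.6% and 50.9%. The highest fold was in PSME4, an activator that caps the core without ATP, at 37.6 with ddH2O and 14.2 with lactate. This peak was annotated as 3′ UTR by a transcript other than the one whose 3′ UTR holds the densest window of the gene, and it lies well inside the gene. Some other windows labelled 3′ UTR lie inside their gene too, so a region label holds for the transcript in the authors' annotation. An exon of PSMD2, the scaffold on which ubiquitin receptors dock, came next at 23.7 with ddH2O and 16.9 with lactate. With lactate, an intron of PSMA1 at 17.4 was above PSMD2, and an intron of PSMB7 at 15.0 came after it.

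To compare the IP libraries directly, the reads of each were counted in a window of 2000 bases around every merged peak. These are bases of the genome, and the exon bases among them were not counted. Read numbers therefore rank windows and not the RNAs of the genes. Over all 116484 windows the libraries held 9756054 reads (lactate) and 9553835 (ddH2O), but outside the RNAs MT-RNR2 and MALAT1 only 1945000 and 3536821, and the median window had 5 and 7 reads. The ratio lactate over ddH2O therefore depends on the scaling, and it is given on the log2 scale both as MAnorm scales it, with a line fitted along signal strength, and after division by the sums of each library with those RNAs left out (library sums). The log2 ratio over all merged peaks with at least 20 reads in the pair of windows had a median of -0.20 by MAnorm and 0.13 by library sums. Intervals are exact binomial ones at the 95% level and cover counting error only. Of the epithelial markers, KRT8 and KRT18 had dense windows (1592 and 4024 reads for KRT8 with lactate and ddH2O), KRT7, KRT19 and MUC1 had 16 to 92 reads with lactate, and SOX9 had no peak, while CD3E, ALB, INS and PRSS1 had none, PTPRC had 0 and 3 reads, and the fibroblast gene COL1A1 had 47 and 50. By library sums the log2 ratio was -0.47 for KRT8, -0.70 for KRT18, -0.56 for KRT19, -0.30 for KRT7 and -0.43 for MUC1. By MAnorm it was 0.20, 0.12, -0.57, -0.75 and -0.75 in the same order.

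Read numbers differed widely among subunits that are built into the particle side by side. The densest window of a gene held from 0 reads (PSMC2) to 3864 reads in the pair of libraries (PSMC4), and 36 of the 42 genes had at least 20 reads in 1 window. Of these 36, 20 had their densest window in an exon, 12 in a 3′ UTR and 4 in an intron. Windows of 500 reads or more were found in 16 genes. An IP read number reflects the amount of an RNA, its share bound and the exon bases in the window, and these were not separated here.

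**Figure D2:**
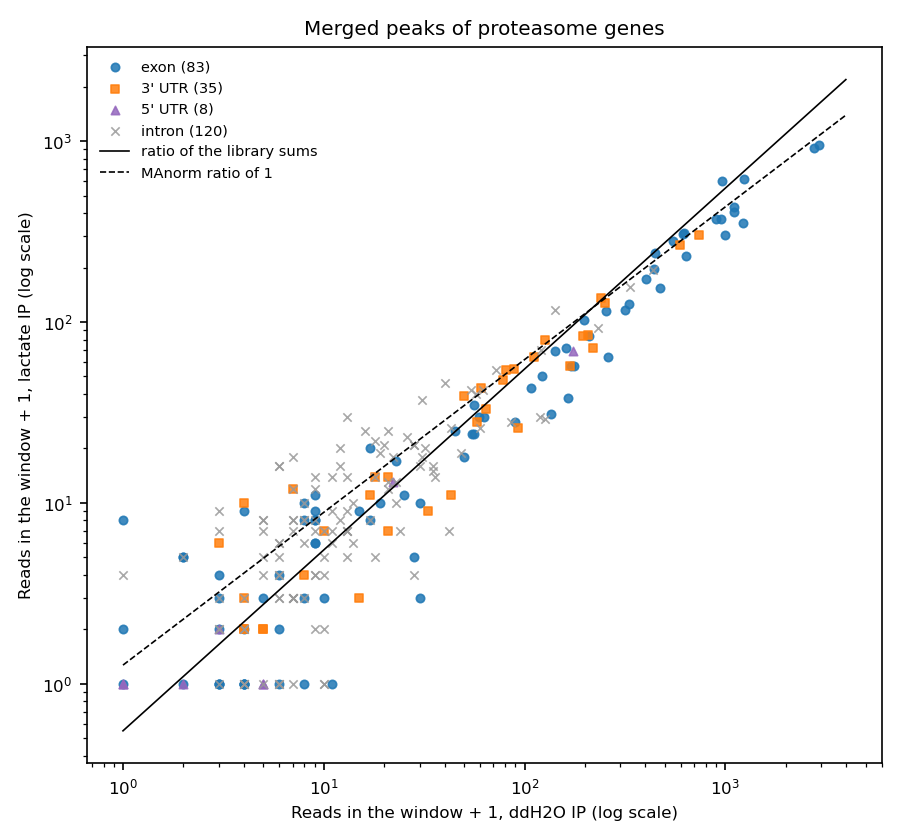
Reads in each of the 246 merged peaks of proteasome genes with ddH2O (horizontal, reads plus 1, log scale) and lactate (vertical, reads plus 1, log scale). Points are merged peaks by transcript region, the solid line is the ratio of the library sums and the dashed line a MAnorm ratio of 1. Above about 100 reads most exon and UTR points lie under the solid line, and intron points scatter on both sides at low reads.

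Among the alpha subunits, which form the gated outer rings, PSMA7 had the densest window with 406 reads with lactate and 1097 with ddH2O. Its log2 ratio was -0.22 by MAnorm (-0.39 to -0.06) and -0.57 by library sums. PSMA4 had 154 and 470 reads, with -0.61 (-0.89 to -0.35) and -0.74. In both genes the lactate value was lower under both scalings, by less than 2-fold. PSMA6 had 63 and 259 reads at the last exon, with -1.21 (-1.65 to -0.83) by MAnorm and -1.16 by library sums, and this window is also covered by the readthrough gene PRORP-PSMA6. PSMA6 was the alpha subunit with the lowest ratio in its densest window. PSMA2 had 71 and 219 reads in its 3′ UTR, PSMA5 had 8 in each library, and PSMA8, the alpha subunit of the testis, had 22 and 25 reads in an intron window that also lies on DHFRP1.

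PSMA1 differed from the other alpha subunits in where its reads lay. It had 39 merged peaks between positions 14517791 and 14643613 of chromosome 11 (GRCh38), of which 37 were intronic, and 23 of them had at least 20 reads. Its densest window, in an intron, held 192 reads with lactate and 437 with ddH2O (-0.17 by MAnorm, -0.43 to 0.07). Its windows outside introns held at most 2 reads with lactate and 7 with ddH2O. The ratios of the 23 windows ran from -1.67 to 1.58 by MAnorm with a median of -0.26, so windows along 1 gene lay on both sides of 0. The libraries do not mark strand, so reads of an overlapping transcript on the other strand would be counted here too.

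In the beta rings, PSMB4, a structural subunit, had 353 reads with lactate and 1227 with ddH2O in its densest window, with a ratio of -0.59 by MAnorm (-0.77 to -0.42) and -0.93 by library sums. PSMB1 had 231 and 634 reads, with -0.38 (-0.60 to -0.16) and -0.59. These were lower with lactate under both scalings. The subunits that carry the protease sites were less dense. PSMB6 (caspase-like activity) had 125 and 332 reads and a MAnorm ratio of -0.48, and PSMB7 (trypsin-like) had 116 and 316 reads and -0.53, in a window that also lies on LOC100129034. PSMB5 (chymotrypsin-like), the subunit that bortezomib binds, had 126 and 251 reads and a ratio of -0.10 with an interval that includes 0 (-0.43 to 0.21). PSMB2 had 4 reads in each library.

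The induced beta subunits replace the standard protease subunits in cells exposed to interferon. PSMB8 had 56 reads with lactate and 176 with ddH2O, a ratio of -0.89 by MAnorm (-1.36 to -0.46) and -0.77 by library sums. PSMB10 had 27 and 89 reads, with -1.10 (-1.82 to -0.51) and -0.82, and its peak was in the lactate list alone, at 5.83-fold over its input, although the ddH2O IP had more reads there. A peak in 1 list alone thus did not mean more reads in that IP. PSMB9 had 16 and 22 reads and an interval that includes 0 (-1.13 to 0.89).

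The regulatory ATPases had either a dense window or no window with 20 reads. PSMC4 had the densest window of the family at the 3′ end of the gene, with 954 reads with lactate and 2910 with ddH2O, a ratio of -0.18 by MAnorm (-0.28 to -0.07) and -0.75 by library sums (-0.85 to -0.64). PSMC5 had 432 and 1102 reads (-0.13 and -0.49) in a window that also touches SMARCD2, and PSMC3 had 371 and 896 reads (-0.10 and -0.41). All 10 ATPase windows with at least 20 reads were below 0 under both scalings, where 67.5% of the exon and UTR windows of protein-coding genes were so by MAnorm and 54.6% by library sums. These 10, all in exons or UTRs, come from 3 genes, and 8 of them overlap another and share reads. PSMC1, PSMC2 and PSMC6, which sit in the same ring, had no window with 20 reads. Windows lie only around merged peaks, so reads elsewhere on these genes were not counted.

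A called peak and the reads in its window could part. The peak on the start of PSMC1 was 10.7-fold over input with a q-value of 1.08e-48, and its window held 8 reads with lactate and 3 with ddH2O. The 1 peak annotated to PSMC2 had a q-value of 1.0 and a window with 0 reads in both libraries, and it lies off the RefSeq span of the gene and on DNAJC2 and PMPCB. Of the proteasome peaks with a q-value below 0.05, 1 of 62 with lactate and 5 of 124 with ddH2O had fewer than 5 reads of their own library in the window, shares of 1.61% and 4.03% that compare with 2.82% and 4.14% of all such peaks.

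The non-ATPase subunits recognise and prepare substrates. PSMD13 and PSMD11, both of the lid, were the densest, and PSMD11 was the one gene among those with 500 reads whose densest window was higher with lactate under both scalings. PSMD11 had 601 reads with lactate and 959 with ddH2O, a ratio of 0.57 by MAnorm (0.42 to 0.72) and 0.19 by library sums (0.04 to 0.34). PSMD13 had 613 and 1237 reads, and its direction turned with the scaling, at 0.26 by MAnorm and -0.15 by library sums. PSMD7, the partner of the deubiquitinase PSMD14, had 303 and 736 reads in its 3′ UTR, at -0.15 and -0.41. The ubiquitin receptor PSMD4 had 310 and 619 reads, PSMD8 had 266 and 591, PSMD2 had 281 and 550, PSMD3 had 241 and 443 and PSMD1 had 196 and 442, and none of these 5 passed a 2-fold difference in its densest window. PSMD14 was densest in an intron, with 116 and 140 reads and a ratio of 0.54 by MAnorm and 0.59 by library sums, in a window that also lies on MXRA7P1. The windows of PSMD6 held at most 5 reads in the pair of libraries, and none of its 4 lactate peaks had a q-value below 0.05.

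Among the chaperones and the genes that act on the particle from outside, the densest windows held from 30 reads (PSMG2) to 374 reads (PSME4) in the pair of libraries. PSMD5, a chaperone that holds ATPases during assembly, had 32 and 63 reads in its 3′ UTR, and PSMD9 had 27 and 57. Of the activators, PSME4 had 135 reads with lactate and 239 with ddH2O in its densest 3′ UTR window (0.07 by MAnorm, -0.25 to 0.38), and PSME3, the activator of the nucleus, had 42 and 60 (0.08, -0.53 to 0.66). Neither activator differed beyond the counting interval in these windows. The inhibitor PSMF1 had 56 and 168 reads in its 3′ UTR, at -0.82 (-1.30 to -0.40) by MAnorm and -0.71 by library sums. Of the chaperones that build the alpha ring, PSMG3 had 79 and 126 reads (0.08 by MAnorm), PSMG4 had 25 and 92 (-1.26 by MAnorm, with an interval below 0) and PSMG2 had 3 and 27 in an intron. PSME3IP1 had 49 and 121 reads in its densest window, at -0.60 (-1.13 to -0.13) by MAnorm and -0.42 by library sums.

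**Figure D3:**
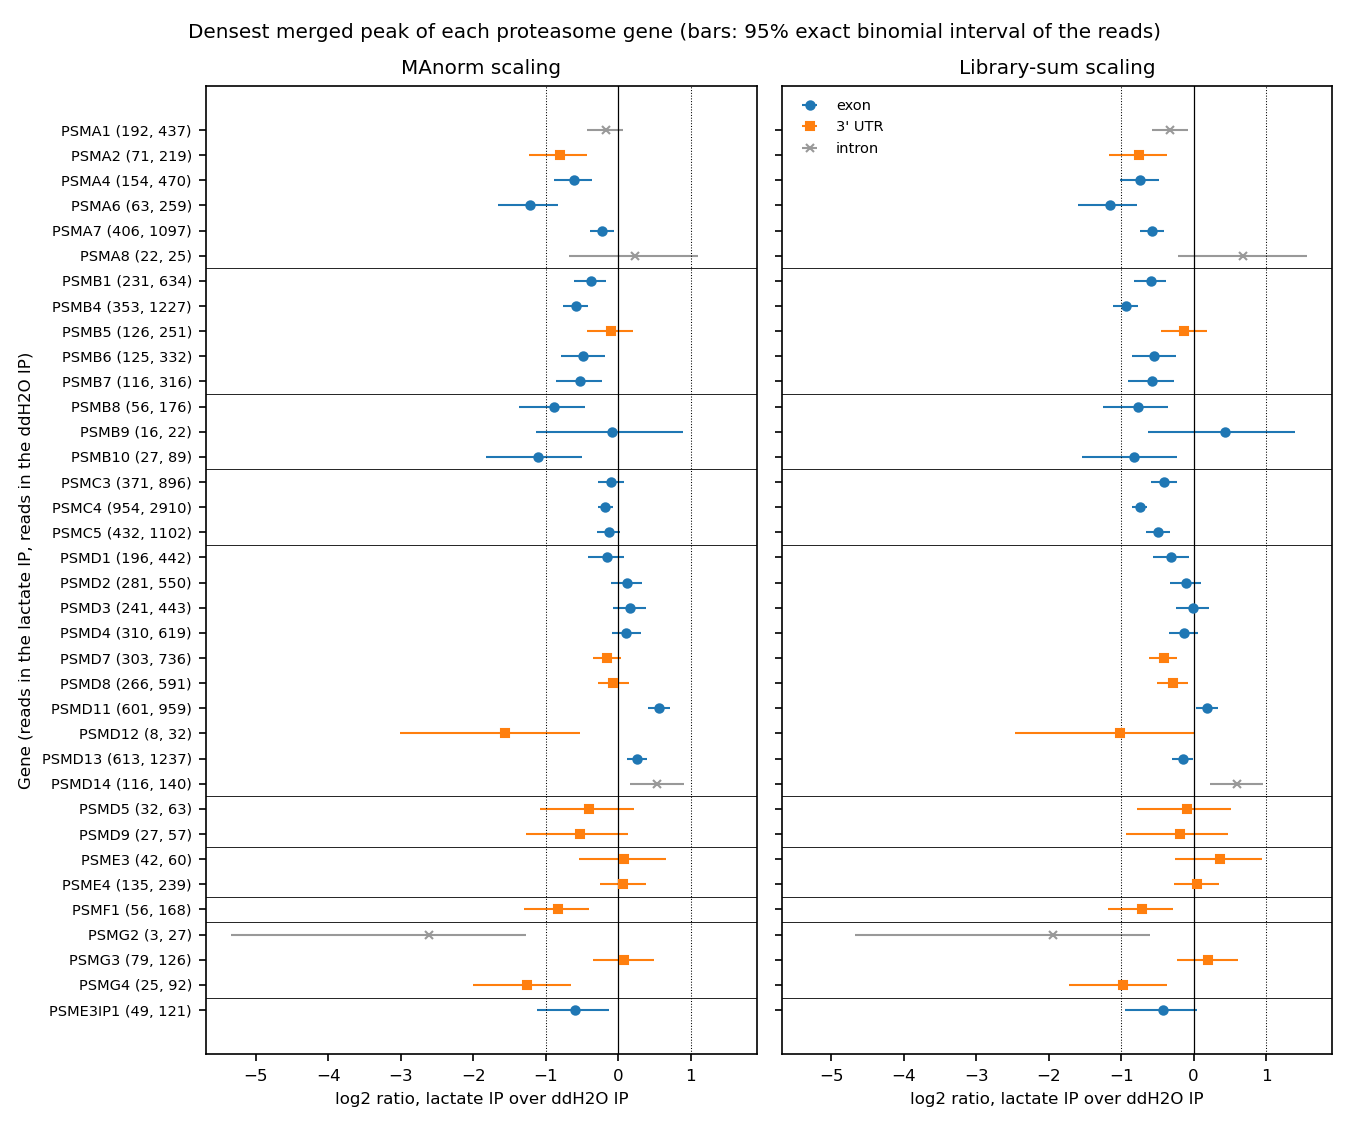
The log2 ratio of lactate IP over ddH2O IP in the densest merged peak of each of the 36 proteasome genes with at least 20 reads (horizontal axis), under MAnorm scaling (left) and library-sum scaling (right). Markers give the transcript region, bars the 95% exact binomial interval of the reads, brackets the reads with lactate and ddH2O, and dotted lines a 2-fold difference. Below 0 lie 26 of 36 genes by MAnorm (72.2%, against 60.0% of all protein-coding genes) and 29 of 36 by library sums (80.6%, against 4410 of all 8819), where PSMD11 is the densest gene above 0.

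Calls were made by size, as higher or lower with lactate, where the scaled ratio passed 2-fold and the pair of windows held at least 20 reads. Of the 128 merged peaks of proteasome genes with that many reads, 5 were higher by MAnorm scaling (3.91%), where the background over all 37925 such merged peaks was 7.65% (7.3% over those of protein-coding genes), and 19 were lower (14.8%), where it was 18.6% (18.3%). By library sums 14 were higher, against a background of 17.0% (16.4%), and 11 were lower, against 8.77% (8.57%). The counts are near or under the background and do not set the proteasome genes apart. Under both scalings 5 were higher and 11 lower. For 4 of the lower calls the whole MAnorm counting interval was under -1, and for none of the higher calls was it wholly over 1. The same counts over all merged peaks were not taken, so they do not set the proteasome genes apart either. Windows within 1 gene can share reads, since 78 of the 128 overlap another window of the family.

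All 5 higher calls lay in introns, and 12 of the 19 lower calls lay in exons or UTRs, a split like that of other genes. Of the windows of all protein-coding genes, 13.0% in introns and 2.3% in exons and UTRs were higher by MAnorm (9.43% and 0% here), and 17.3% and 19.2% were lower (13.2% and 16.0% here). The higher calls had few reads. An intron of PSMA1 had 17 reads with lactate and 6 with ddH2O (1.58 by MAnorm, 0.31 to 3.35). An intron of PSMF1 had 29 and 12 (1.56, 0.61 to 2.73), and an intron of PSMD5 had 19 and 11 (1.03, with an interval that includes 0, -0.06 to 2.30), with an overlapping window of 24 and 15 reads just short of 2-fold. The remaining higher calls were a window of 15 and 5 reads in an intron of PSME3IP1 and one of 15 and 5 reads annotated to PSMG4 that lies off its RefSeq span and on SLC22A23.

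The lower calls included the 5′ exons of PSMC4. Its first exon had 37 reads with lactate and 163 with ddH2O (-1.42 by MAnorm, -2.01 to -0.93) and the neighbouring exon 30 and 134 (-1.48, -2.14 to -0.94), windows that overlap, while the dense 3′ end of the gene was at -0.18. By library sums these windows of PSMC4 lay closer together, at -1.25 and -1.26 against -0.75 at the 3′ end. An exon of PSMD2 had 4 and 27 reads (-2.26, -4.50 to -1.01), beside its densest window at 0.12. Within both genes the called window was thus one of low density. A 3′ UTR window of PSMC3 had 10 and 42 reads (-1.59), one of PSMD12 had 8 and 32 (-1.55), an exon of PSMD1 had 9 and 29 (-1.26), an exon of PSME3 had 17 and 49 (-1.02), and a 3′ UTR window of PSME4 had 6 and 20 (-1.35). PSMA6, PSMB10 and the 3′ UTR of PSMG4 were called lower with the values given above. By library sums the windows of PSMB10, PSMD1, PSME3 and PSME4 and the 3′ UTR window of PSMG4 passed 2-fold no longer, at -0.82, -0.72, -0.61, -0.72 and -0.98.

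Intron windows called lower were 5 of PSMA1, with 4 to 29 reads with lactate and 17 to 125 with ddH2O, and 1 each of PSMF1 and PSMG2, and 3 of the 5 of PSMA1 were not called by library sums. The window of PSMF1 had 6 reads with lactate and 41 with ddH2O (-2.27, -3.98 to -1.21), and it lies on the same gene as the intron window of PSMF1 that was higher. PSMG2 had 3 and 27 reads (-2.61, -5.33 to -1.27) in a window that also lies on CEP76. The lowest ratio, -3.15 (-6.80 to -1.70) with 2 and 29 reads, was annotated to an exon of PSMG4 but lies off its RefSeq span and on SLC22A23. PSMA1, PSMF1 and PSMG4 had calls in both directions.

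Below the size of a call, the exon and UTR windows of proteasome genes had lower ratios than those of protein-coding genes at large. Their median log2 ratio was -0.40 by MAnorm and -0.33 by library sums over 75 windows in 33 genes, where that of all protein-coding genes was -0.31 and -0.08. By library sums 57 of the 75 (76.0%) were below 0, against 54.6% of 17749 such windows. Low ratios were not limited to the proteasome, since over windows of all regions the mitochondrial ribosomal protein genes had medians of -0.38 and -0.20 with 64.7% below 0 by library sums, and the proteasome genes -0.28 and -0.16 with 58.6%. The intron windows had medians of -0.06 and 0.33 over 53 windows against -0.03 and 0.45 for other introns, and PSMA1 gave 23 of the 53. Without PSMA1 the intron medians turned to 0.14 and 0.54.

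**Figure D4:**
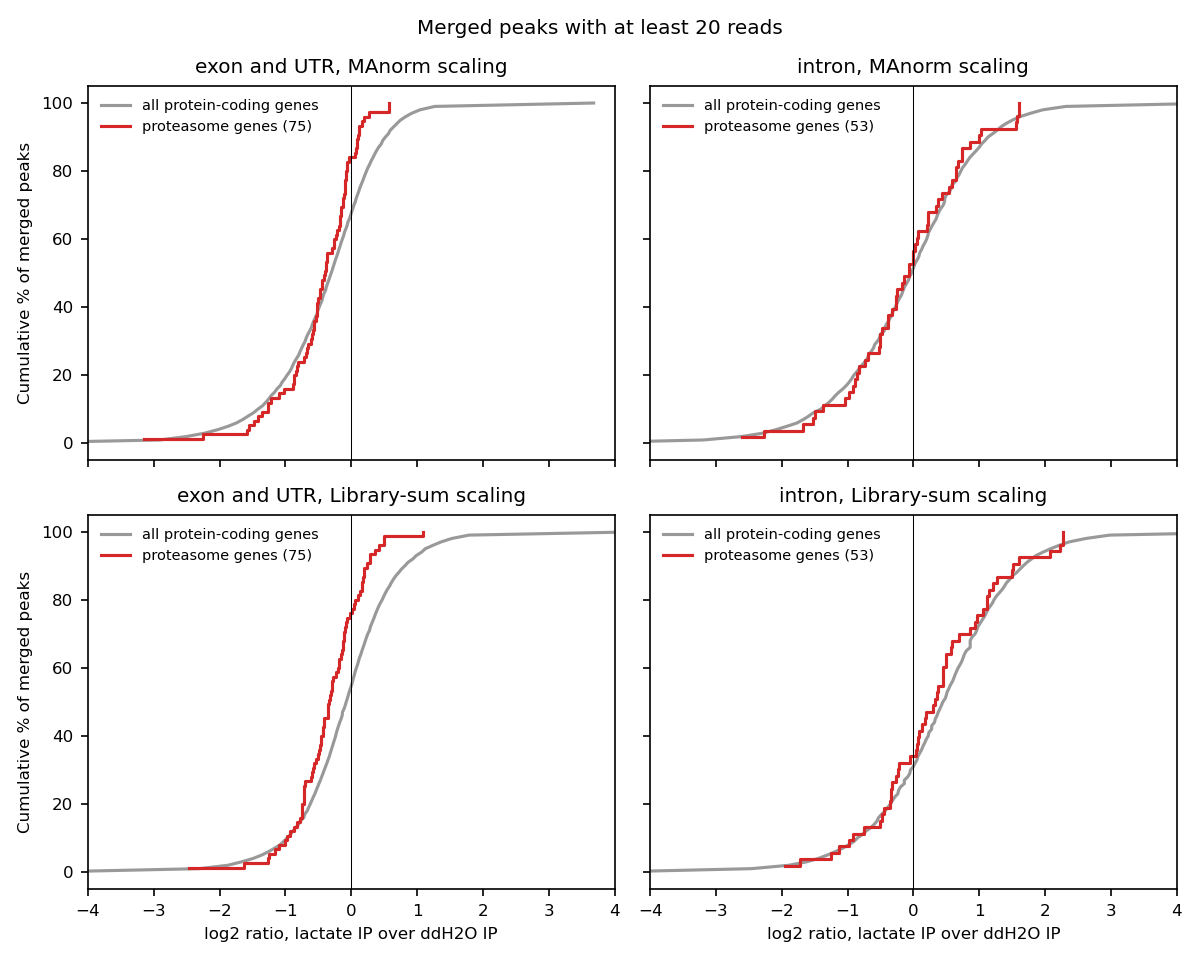
Cumulative share of merged peaks (vertical axis, %) by log2 ratio of lactate IP over ddH2O IP (horizontal axis), for exon and UTR windows (left) and intron windows (right) with at least 20 reads, by MAnorm scaling (top) and library sums (bottom). The exon and UTR curve of the proteasome genes (red, 75 windows) lies left of that of all protein-coding genes (grey) above the middle of its range, most plainly by library sums, and the intron curves (53 windows, 23 of PSMA1) run together.

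Since the MAnorm line rises with density, the ratios were also read at like density. At 500 reads or more, the 20 exon and UTR windows in 15 proteasome genes had medians of -0.15 by MAnorm and -0.41 by library sums, and 19 of 20 were below 0 by library sums, where 1639 windows of protein-coding genes had 0.11 and -0.14 with 64.2% below 0. Between 100 and 499 reads, 29 windows had -0.48 and -0.43 against -0.22 and -0.11, and between 20 and 99 reads, 26 windows had -0.53 and -0.15 against -0.51 and -0.03. The dense and middle windows thus lay below those of like density under either scaling, and the low ones lay closer to them. With 1 densest window per gene and at least 500 reads, the 16 proteasome genes had medians of -0.14 and -0.36 and 15 of 16 were below 0 by library sums, against 0.14, -0.12 and 63.3% of 1124 genes. Of the epithelial markers given above, KRT8 and KRT18 were as low by library sums and above 0 by MAnorm. KRT7, KRT19 and MUC1, with fewer reads, were below 0 under both scalings. The 6 marker windows with at least 20 reads had medians of -0.38 by MAnorm and -0.45 by library sums. The 16 genes of the cytosolic ribosome had 0.30 and -0.15, the 9 of the mitochondrial ribosome 0.10 and -0.16 and the 9 ubiquitin-specific proteases 0.03 and -0.21. Over all 36 densest windows, the MAnorm median of -0.17 was near the -0.16 of all genes while the library-sum median of -0.41 was below their 0.00. The densest windows of the mitochondrial ribosomal protein genes had -0.35 by MAnorm and -0.25 by library sums. A change in the amount of these mRNAs and a change in their binding cannot be told apart from the IP reads alone.

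Among windows with at least 20 reads, fold over input was not higher in the dense ones. With ddH2O, the peaks in the 20 windows of 500 reads or more had a median fold of 2.92 over input, from 1.20 (PSMA4) to 23.7 (PSMD2), and the 64 windows with 20 to 99 reads had a median of 3.85, where all protein-coding genes had 4.01 and 4.40. With lactate the medians were 3.06 and 4.28, against 3.69 and 4.25. The dense window of PSMC4 was 1.85-fold over input with ddH2O and 1.48-fold with lactate.

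**Figure D5:**
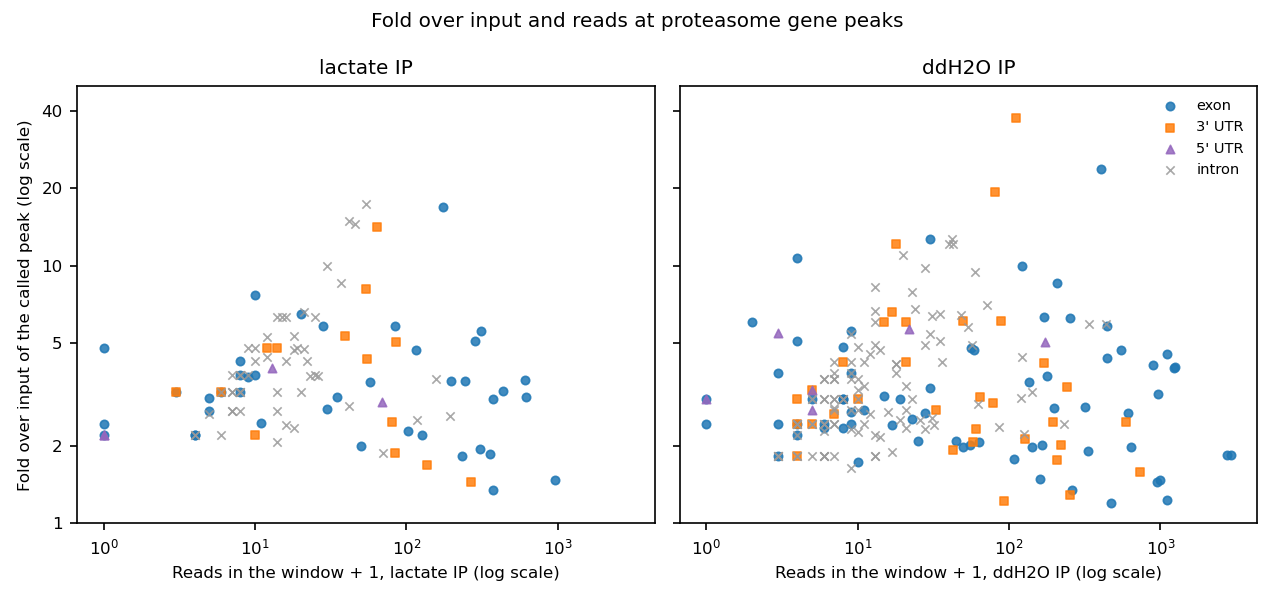
Fold over input of the called peak (vertical, log scale) against reads in its window (horizontal, reads plus 1, log scale) at merged peaks of proteasome genes with lactate (left) and ddH2O (right), by transcript region. The densest windows, such as PSMC4 at 1.48-fold and 1.85-fold, lie low, and the highest fold, 37.6 at PSME4, is at a middle read number.

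Of 24 genes that supply, assemble or serve the proteasome and do not bear the symbol, 20 had a merged peak, and UBB, RPS27A, UCHL5 and ZFAND5 had none. Of their 63 merged peaks with at least 20 reads, 2 were higher and 11 lower by MAnorm, where the background was 7.65% and 18.6%. By library sums the balance turned, with 8 higher and 3 lower, against 17.0% and 8.77%. The median ratio was -0.05 by MAnorm and -0.08 by library sums. NFE2L1, the transcription factor of proteasome genes, had 726 reads with lactate and 1329 with ddH2O in its 3′ UTR (0.43 by MAnorm, 0.30 to 0.56, and -0.01 by library sums), and a 5′ UTR window of it with 8 and 32 reads was lower. The segregase VCP had 424 and 895 reads (0.11), and an exon window of it with 10 and 37 reads was lower (-1.43). The higher calls were an exon of the shuttle UBQLN2, with 18 reads with lactate and 3 with ddH2O (2.40, 0.96 to 5.14), and an intron of NGLY1, the enzyme that removes sugars from NFE2L1, with 32 and 8 (2.19). The deubiquitinase USP14 had 5 of the lower calls in windows of 3 to 14 reads with lactate and 17 to 43 with ddH2O, beside a densest window of 206 and 407 reads at 0.03. ECPAS had 5 and 27 reads in a lower exon window and DDI2, the protease that activates NFE2L1, had 15 and 45 in its 3′ UTR. By library sums the windows of VCP and DDI2 and 4 of the 5 windows of USP14 were not called, at -0.93, -0.66 and between -0.87 and -0.61.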

How the data were processed

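RIP-seq against NSUN2 was done in PANC-1 cells, with 1 IP and 1 input library for lactate and for ddH2O. SMART-Seq libraries do not mark strand. The submitters' processing notes name fastp 0.20.1, HISAT2 2.1.0, MACS2 2.2.7.1, bedtools 2.29.2, HOMER 4.11.1 and DiffBind, with GRCh38/hg38, without their roles. The authors called peaks in each IP against its input and deposited per peak a fold (a ratio over input), p-values, q-values, their −log10 values, gene and region. The authors merged the lists with MAnorm and deposited the normalized signal (read density) of both IP libraries. They also deposited log2 ratios, mean log2 densities and P-values of their own comparison, which were not used. The number of per-sample columns left unused was 0.

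Genes were taken from the union of the lists, and merged peaks by an overlap of 1 base. Reads in each window of 2000 bases were recovered from the densities, taken as reads plus 1 per kb and a MAnorm line of slope 0.17 and intercept -0.20. Of all windows, 99.9983% gave whole reads within 0.05. Recovery was tested on simulated data. A called difference was over 2-fold with at least 20 reads, a rule of size with no test. Intervals are exact Clopper-Pearson at 95% and cover counting error only. Input depth and IP depth outside the windows are unknown. Members were named by role: the 3 densest per group, every one with a call, the induced subunits, PSMF1 and PSME3IP1, and of the other pathway genes the 3 densest, of which 1 is not reported here, and up to 6 with a call. Others are named for an absent peak or low reads after their values were seen. Members, lists and the setting of windows by density were chosen with earlier results of these data known. Of the 329 member peaks, 9 lay off the gene's RefSeq span (7 of PSMG4), and 28 of the 246 merged peaks also lay on another RefSeq gene. All coordinates count from 1. The alternatives were other scaling, read, fold, q and overlap limits, 1 window per gene and, added after seeing the data, leaving out PSMA1 or windows off the span. Python 3.11.15, numpy 2.4.6, pandas 2.3.3, scipy 1.17.1, matplotlib 3.10.9 and bedtools 2.31.1 were used.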

Additional observations from a re-analysis of the deposited data

How the results depend on the processing

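No paired analysis was possible because lactate and ddH2O had 1 IP library each and no test was run. With a fold enrichment of at least 4, 16 proteasome genes kept a peak with lactate and 23 with ddH2O, and at an overlap of 50% of both peaks, 52 peaks of each list overlapped. Against 5 merged peaks higher with lactate, there were 14 by library sums, 14 without a read minimum, and 0 each at 50 reads, at a fold over 4, in exons and UTRs and with 1 merged peak per gene. Against 19 lower, there were 11 by library sums, 71 without a read minimum, 10 at 50 reads, 4 at a fold over 4, 12 in exons and UTRs and 5 with 1 per gene. Without a read minimum the counts are over all 246 merged peaks. With 1 per gene, 3.3% of all protein-coding genes were higher and 12.5% lower. For the other read and fold limits no share over all merged peaks is given, so those counts do not compare proteasome genes with others. The median log2 ratio of -0.28 was -0.16 by library sums, -0.46 without a read minimum, -0.26 at 50 reads, -0.40 in exons and UTRs, -0.17 with 1 per gene and -0.30 without PSMA1, below 0 throughout. Other scaling moved 8 of 45 named windows beyond their counting interval and left 37 within it. Most windows hold too few reads to fix a 2-fold difference.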

Other observations

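Pseudogenes and antisense RNAs named after proteasome genes also had peaks, and reads there cannot be parted with certainty from those of the parent gene or of the gene on the other strand. The processed pseudogene PSMC1P1 on chromosome 3 had 114 reads with lactate and 392 with ddH2O in a window at positions 68635553 to 68635988 (-0.84 by MAnorm and -0.91 by library sums) and 32 and 96 reads in a neighbouring window, with peaks in both lists. The densest window of PSMC1 itself, whose transcript PSMC1P1 copies, had 9 and 7 reads. How the aligner shared reads between PSMC1 and PSMC1P1 was not tested.

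PSMB8-AS1, an RNA beside the induced subunit gene PSMB8, had 251 reads with lactate and 478 with ddH2O (0.12 by MAnorm and -0.06 by library sums) in a peak of 10.5-fold over input, more reads than the densest window of PSMB8. PSMA3 had no peak, and PSMA3-AS1 had a window of 33 and 86 reads (-0.76 by MAnorm and -0.49 by library sums).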
